A study of Mus musculus with 16 samples.

Results

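Transcripts of haem synthesis, of cytochrome P450 reductase and of cytochrome b5 were followed in mouse hepatocytes treated with SQ1 or pravastatin. The 9 genes are Alas1, Alad, Uros, Urod, Cpox, Ppox and Fech of the haem pathway, and the electron carriers Por and Cyb5a. They were 9 of 20659 genes that could be named on the array, and all 9 were among the 15053 genes bright enough to be tested. They were chosen by their treated-over-control ratios with both drugs, since Alas1 and Por were higher with each drug while many P450 genes were lower with pravastatin. Their ratios are therefore given as a description, with a standard error and without a p-value.

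The cells were primary hepatocytes of male C57Bl/J mice, plated in culture and kept in Williams Medium E. From 48 h after plating they received SQ1 (squalestatin 1, an inhibitor of squalene synthase, labelled 100 µM) or pravastatin (an inhibitor of HMG-CoA reductase, 30 µM) for 48 h, or were left untreated as controls. No age of the mice is given, and every group consisted of these cultures without a genetic change. Each of 16 two-colour Agilent arrays carried treated RNA in one dye and control RNA in the other, and each drug had 8 arrays. Alexa 647 marked the treated RNA on 4 arrays of a drug and Alexa 555 on the other 4. The deposited arrays are named for 8 control cultures that each served both drugs, so that the 2 comparisons share their control samples. The doses differ, and the labelled SQ1 dose may carry a wrong unit, because squalestatins act far below that concentration.

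Haem synthesis starts in the mitochondrion, passes through the cytosol and ends in the mitochondrion, where iron is put into the ring. In the liver much of the haem made is used by microsomal cytochrome P450 enzymes, and free haem limits its own production by holding down Alas1, the first and rate-limiting enzyme. P450 enzymes take their electrons from NADPH through P450 reductase, the product of Por, which also serves haem oxygenase and enzymes of sterol synthesis. Cytochrome b5, the product of Cyb5a, carries electrons to fatty acid desaturases, to sterol oxidases and to some P450 enzymes.

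Across the 16 arrays 58.9% to 69.6% of probes were well above background in a channel, and each of the 9 genes was so in all 16 treated and all 16 control channels. None was saturated. All 8 hepatocyte markers, albumin (Alb) and transthyretin (Ttr) among them, were well above background in every channel. So were macrophage, stellate and endothelial markers such as Cd5l, Col1a1 and Stab2. Of the red cell markers, Hbb-bs was not well above background in any channel, while Hba-a1 was in all of them. The arrays lay on 4 slides: SQ1 on slides 1 and 2, pravastatin on slides 3 and 4, each slide with 4 arrays of both dye orientations. Slide 3 was scanned on another day than the rest.

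Alas1, by the brighter of its 2 probes, and Por were higher with both drugs. Promoter sequence of each is shown because these are the 2 genes of the 9 that were higher with both. The Alas1 window is chr9:106247905-106248204 on the minus strand and the Por window chr5:135688895-135689194 on the plus strand, both in RefSeq's mouse build GRCm38.p6, 250 bases before to 50 after an annotated start. The Alas1 window is the first of 2 in the table, and its start is the outer end of the gene. The Por window is the only 1 in the table, and its start lies 19105 bases inside the annotated span of the gene.
Alas1: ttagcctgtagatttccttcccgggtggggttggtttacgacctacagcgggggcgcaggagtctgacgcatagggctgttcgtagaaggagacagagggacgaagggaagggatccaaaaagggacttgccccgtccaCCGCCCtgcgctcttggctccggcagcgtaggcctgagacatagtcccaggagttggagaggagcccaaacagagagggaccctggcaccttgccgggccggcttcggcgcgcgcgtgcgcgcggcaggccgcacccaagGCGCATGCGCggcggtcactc
Por: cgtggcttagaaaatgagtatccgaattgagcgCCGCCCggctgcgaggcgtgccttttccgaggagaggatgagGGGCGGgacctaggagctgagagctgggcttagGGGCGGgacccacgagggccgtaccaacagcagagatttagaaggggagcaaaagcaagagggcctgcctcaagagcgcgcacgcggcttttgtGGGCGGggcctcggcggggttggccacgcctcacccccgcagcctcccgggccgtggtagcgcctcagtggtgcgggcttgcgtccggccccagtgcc
Capitals mark matches to 8 short motifs that were searched on both strands. In the Alas1 window the NRF1 core GCATGCGC matched on both strands, 2 matches that overlap each other, and the GC box GGGCGG matched in 1 place. The second Alas1 window, chr9:106247681-106247980, overlaps the first, and it held the same NRF1 core and no GC box. The Por window held 4 GC boxes and no NRF1 core. The NRF1 core was present in 2.71% and the GC box in 35.7% of the 32851 promoter windows of the mouse. The sterol element TCACNCCAC (1.24% of windows), the E-box CACGTG (7.15%), the nuclear receptor element AGGTCA (16.3%), the CCAAT box (37.4%), the TATA box TATAAA (13.6%) and the GATA core AGATAA (11.2%) had no match in the 2 windows printed. Of the 9 genes 7 had a window in the table. These are matches of letters, and no binding was measured.

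Alas1 encodes the liver's 5-aminolevulinate synthase, which joins glycine to succinyl-CoA. Its normalised intensity with SQ1 was 33270 at the lowest, 40590 at the median and 47600 at the highest of 8 arrays, against 25060, 26880 and 30580 in the control channels of the same arrays. Every SQ1 channel was above every control channel, and the share of all genes tested with such a separation was not counted. With the dye effect removed, the log2 ratio of SQ1 over control was 0.60 ± 0.05 (SE, n = 8 arrays), a 1.51-fold higher level, and it lay between 0.39 and 0.76 on single arrays. With pravastatin the intensity was 27660, 30840 and 32890 at the lowest, median and highest, against 22980, 26790 and 29270 in controls. These groups overlapped. The log2 ratio of pravastatin over control was 0.22 ± 0.05 (SE, n = 8 arrays), a 1.17-fold higher level, and it was above 0 on 7 of 8 arrays. With each array centred on its median in place of loess the pravastatin ratio was 0.40. This and the other counts of arrays by sign are of ratios with the dye effect left in. Of all genes tested, 0.837% had a higher ratio than Alas1 with SQ1 and 16.4% with pravastatin. A second Alas1 probe is on the array, with a mean intensity of 454.3, which makes it the dimmer one. It gave 0.19 ± 0.03 with SQ1 and -0.01 ± 0.03 with pravastatin, so that the probes went the same way with SQ1 and the second probe showed no higher level with pravastatin. In bulk RNA of this kind, fewer cells of a type and less RNA per cell cannot be told apart.

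**Figure D1:**
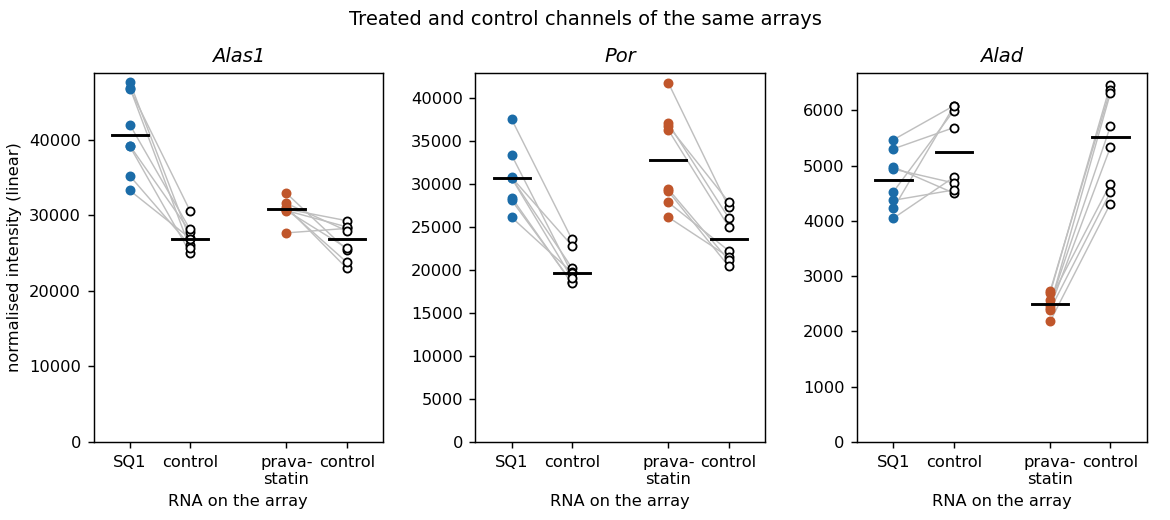
Normalised intensity (linear scale) of Alas1, Por and Alad in the treated channel (filled) and the control channel (open) of each array, with grey lines joining the channels of 1 array and bars at the median of 8 arrays. Alas1 and Por lie higher in all SQ1 channels than in any control channel of those arrays, and Alad lies at 2183 to 2730 in pravastatin channels against 4313 to 6463 in controls. The share of all genes with such a separation was not counted.

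Por was higher with both drugs on every array. With SQ1 its normalised intensity was 26130 at the lowest, 30710 at the median and 37550 at the highest, against 18450, 19680 and 23590 in controls. The groups did not overlap, for which no share of all genes was counted. The log2 ratio was 0.60 ± 0.04 (SE, n = 8 arrays), a 1.51-fold higher level. With pravastatin it was 26150, 32860 and 41780, against 20450, 23660 and 27930 in controls. These groups overlapped, although on each of the 8 arrays the treated channel was the higher one. The log2 ratio of pravastatin over control was 0.46 ± 0.04, a 1.37-fold higher level, with single arrays between 0.27 and 0.62. Ratios above 0 on all 8 arrays were found for 9.44% of genes tested with SQ1 (below 0 for 9.06%) and for 19.6% with pravastatin.

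Alad encodes the cytosolic enzyme that joins 2 molecules of aminolevulinate into porphobilinogen, and it was the lowest of the 9 genes with pravastatin. Its normalised intensity was 2183 at the lowest, 2489 at the median and 2730 at the highest in pravastatin channels, against 4313, 5523 and 6463 in controls. The groups did not overlap, and the share of all genes with such a separation was not counted. The log2 ratio was -1.11 ± 0.07 (SE, n = 8 arrays), which is 2.17-fold lower, and it was below 0 on 8 of 8 arrays, as for 24% of all genes tested. With SQ1 Alad had 4048, 4732 and 5467, against 4502, 5237 and 6080 in controls, and the groups overlapped. The log2 ratio of SQ1 over control was -0.16 ± 0.07, with 6 of 8 arrays below 0.

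The enzymes that close and trim the ring were lower with pravastatin and near control with SQ1. Uros, which closes uroporphyrinogen III, had an intensity of 4325, 5372 and 6109 (lowest, median, highest) with pravastatin, against 5773, 6527 and 7610 in controls. The log2 ratio was -0.36 ± 0.05, below 0 on 8 of 8 arrays. Urod, which removes carboxyl groups from that ring, had 15380, 17290 and 19220 with pravastatin, against 17420, 20090 and 22420 in controls. Both sets of groups overlapped, and the Urod ratio was -0.20 ± 0.04, also below 0 on 8 of 8 arrays. With SQ1 the log2 ratios were 0.01 ± 0.05 for Uros, with arrays from -0.12 to 0.28, and 0.08 ± 0.04 for Urod, with arrays from -0.08 to 0.30.

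The last 3 steps take place in or at the mitochondrion. Cpox, which forms protoporphyrinogen, had 7152, 8078 and 9276 with pravastatin, against 6023, 8387 and 9957 in controls, and 6234, 7445 and 8302 with SQ1, against 6487, 7792 and 9484 in controls. All of these groups overlapped. Its log2 ratio was 0.00 ± 0.09 with pravastatin and -0.11 ± 0.09 with SQ1, and its arrays spread more widely than those of the other haem enzymes, from -0.38 to 0.52 with pravastatin. Ppox, which oxidises protoporphyrinogen, had 1492, 1612 and 1972 with pravastatin, against 1632, 1868 and 2210 in controls. The groups overlapped at a log2 ratio of -0.19 ± 0.03, below 0 on 8 of 8 arrays. Ppox with SQ1 stood at -0.01 ± 0.03. Fech, the ferrochelatase that inserts iron, had 13970, 14530 and 17120 with pravastatin, against 16810, 18770 and 22030 in controls. These groups overlapped only at their edge, with a log2 ratio of -0.35 ± 0.05 and 7 of 8 arrays below 0. With SQ1 Fech stood at -0.04 ± 0.05, with 4 arrays above and 4 below 0.

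Cyb5a went opposite ways with the 2 drugs. Its normalised intensity was 162200 at the lowest, 189800 at the median and 212800 at the highest with SQ1, against 121000, 153400 and 190200 in controls. With pravastatin it was 95260, 124000 and 137400, against 123900, 167000 and 210600 in controls. Both sets of groups overlapped. The log2 ratio was 0.29 ± 0.10 with SQ1, above 0 on 7 of 8 arrays, and -0.51 ± 0.10 with pravastatin, below 0 on 8 of 8. The SQ1 value did not hold its side of the threshold under several alternatives: without SQ1 replicate 3, 4, 6, 7 or 8 it was 0.28, 0.24, 0.31, 0.24 or 0.26, with scan day as a block it was 0.16, and it was lost as well with slide as a block, with median centring and without the filter on dim probes.

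**Figure D2:**
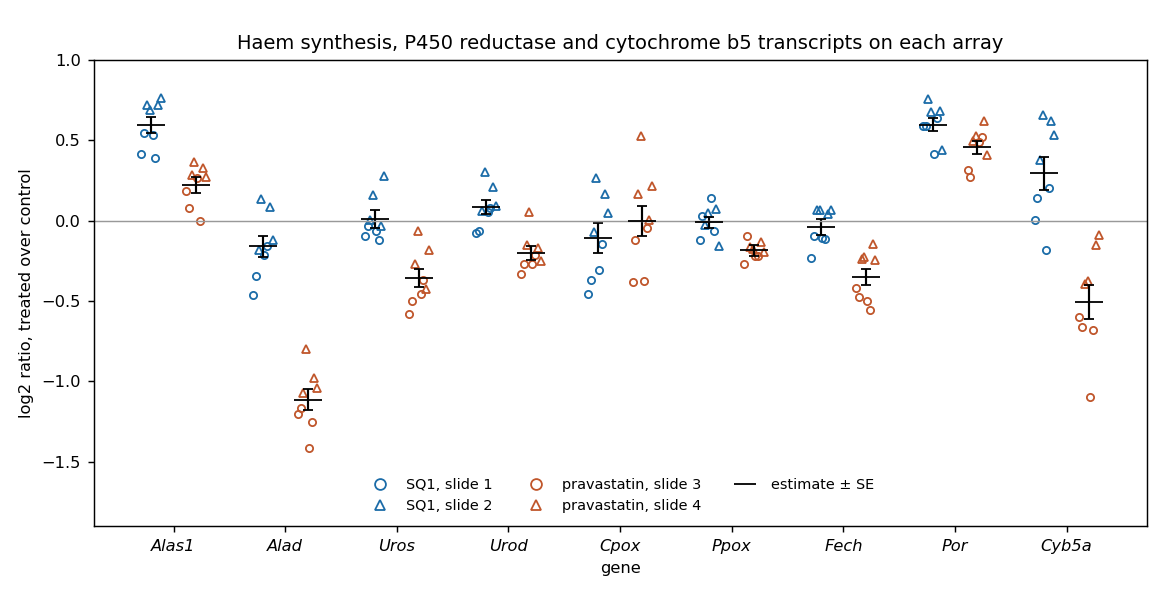
Log2 ratio of treated over control on each array, dye effect removed, for the 9 genes, with SQ1 in blue and pravastatin in orange, circles and triangles for the slides of a drug, and black bars for the estimate ± SE (n = 8 arrays). Alas1 and Por lie above 0 with both drugs, apart from 1 pravastatin array of Alas1 at 0.00, while Alad lies between -1.41 and -0.80 with pravastatin.

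With SQ1, 3 of the 9 genes were past the threshold upwards (adjusted p of 0.05 over all genes tested), namely Alas1, Por and Cyb5a, and 0 downwards, where 32.3% of all genes were past it, 15.8% higher and 16.5% lower. With pravastatin, Alas1 and Por were past it upwards and 6 of 9 downwards, where 66.7% of all genes were past it, 30.9% higher and 35.8% lower. Cpox was not past it with either drug. The median log2 ratio of the 9 genes was 0.01 with SQ1 and -0.20 with pravastatin, beside 0.00 and -0.01 for all genes tested. Since the ratios chose the genes, nothing is read from these counts. With each array centred on its median in place of loess, the count of 6 became 1, Alad, and the ratios of Uros, Urod, Ppox, Fech and Cyb5a were -0.22, -0.04, -0.08, -0.19 and -0.27. With Agilent's processed signals Urod stood at -0.13 and Ppox at -0.10.

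The ratios of the 2 drugs stand side by side at unmatched doses. SQ1 minus pravastatin was 0.38 ± 0.07 for Alas1 and 0.14 ± 0.06 for Por on the log2 scale. It was 0.96 ± 0.09 for Alad, 0.80 ± 0.15 for Cyb5a, 0.37 ± 0.08 for Uros, 0.31 ± 0.07 for Fech, 0.28 ± 0.06 for Urod and 0.17 ± 0.045 for Ppox. Cpox had -0.11 ± 0.13. These standard errors treat the 16 ratios as independent, although the 2 drugs share control cultures. Of all genes, 53.2% differed between the drugs past the threshold, 29.3% with the higher ratio for SQ1. The differences of all but Por and Cpox were past it, and nothing is read from this, since these ratios chose the genes. With median centring only those of Alad and Cyb5a were past it, and that of Alas1 was 0.32. With the replicate number as a block or with array weights that of Por was past it as well. With slide as a block that of Ppox was not.

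The ratios of a drug differed between its 2 slides for some genes, and this difference played no part in choosing the genes, so it was tested. Slides 1 and 3 held replicates 1, 2, 5 and 6 and slides 2 and 4 replicates 3, 4, 7 and 8, so that slide and set of cultures cannot be told apart, and the slides of both drugs drew on the same control cultures. Between slides 1 and 2 of SQ1, 4 of the 9 genes differed (12.3% of all genes did). Between slides 3 and 4 of pravastatin 6 of 9 differed (21.8% of all genes). The ratio was lower on slide 1 than on slide 2 for 8 of 9 genes, all but Ppox, and lower on slide 3 than on slide 4 for 9 of 9, whether or not they differed past the threshold. Of all genes tested, 54.1% had the lower ratio on slide 1 and 57.5% on slide 3. The 2 directions are not independent of each other, because the control cultures are shared.

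Alas1 had a log2 ratio of 0.47 ± 0.04 on slide 1 and 0.72 ± 0.04 on slide 2 with SQ1 (SE, n = 4 arrays each, adjusted p = 0.0149 in limma). With pravastatin it had 0.13 ± 0.04 on slide 3 and 0.31 ± 0.04 on slide 4 (adjusted p = 0.0422). Alas1 was thus above control on each slide, and less so on slides 1 and 3. Por had 0.56 ± 0.06 on slide 1 and 0.64 ± 0.06 on slide 2 (adjusted p = 0.551), and 0.40 ± 0.06 on slide 3 and 0.51 ± 0.06 on slide 4 (adjusted p = 0.342). A slide difference of Por was not detected at this precision.

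Cyb5a had 0.04 ± 0.08 on slide 1 and 0.55 ± 0.08 on slide 2 (adjusted p = 0.0113), so that its higher level with SQ1 was that of slide 2. With pravastatin it had -0.76 ± 0.08 on slide 3 and -0.25 ± 0.08 on slide 4 (adjusted p = 0.00544). Cpox changed sign: it had -0.32 ± 0.08 on slide 1 and 0.10 ± 0.08 on slide 2 (adjusted p = 0.0256), and -0.23 ± 0.08 on slide 3 and 0.23 ± 0.08 on slide 4 (adjusted p = 0.00892). Its mean ratios near 0 therefore average estimates of opposite sign on the slides. With SQ1 the slide 2 estimate was little above its standard error, and only the difference between slides was tested. Fech had -0.14 ± 0.03 on slide 1 and 0.06 ± 0.03 on slide 2 (adjusted p = 0.0158), and -0.49 ± 0.03 on slide 3 and -0.21 ± 0.03 on slide 4 (adjusted p = 0.00102). Alad with pravastatin had -1.26 ± 0.06 on slide 3 and -0.97 ± 0.06 on slide 4 (adjusted p = 0.0339), and Uros had -0.48 ± 0.06 and -0.24 ± 0.06 (adjusted p = 0.0439). With arrays centred on the median in place of loess, 0 of 9 genes differed between slides for either drug, where 11 and 143 of all genes did, and with array weights the pravastatin differences of Alas1, Alad and Uros were lost at adjusted p = 0.063, 0.0811 and 0.0789.

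The channels behind these ratios moved differently. The median Alas1 intensity in SQ1 channels was 37165 on slide 1 and 46815 on slide 2, while its controls had 26465 and 27470. With pravastatin the Alas1 controls moved more, at 28350 on slide 3 and 24720 on slide 4, while pravastatin channels had 30705 and 30970. For Cyb5a with SQ1 the controls also moved more, with 171850 on slide 1 and 133250 on slide 2. Its SQ1 channels had 181300 and 191700. Alad controls likewise had 6343 on slide 3 and 4598 on slide 4, while pravastatin channels had 2600 and 2412. Intensities were normalised within each array by loess, and the mean log intensity of both channels was then quantile-normalised between arrays. Levels on different slides are given as values without a test.

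**Figure D3:**
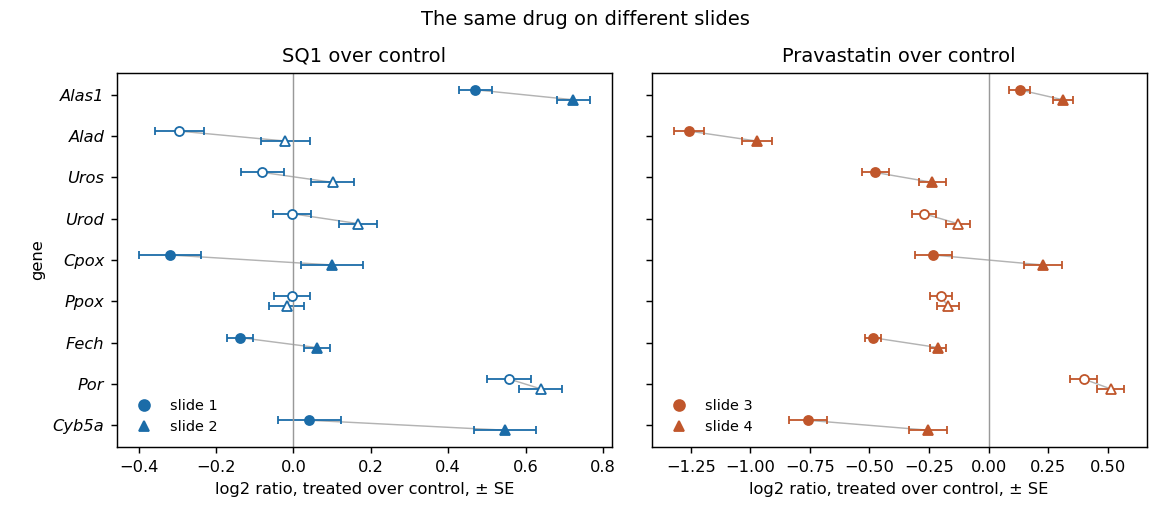
Log2 ratio of treated over control ± SE for each gene on slides 1 (circle) and 2 (triangle) with SQ1 and on slides 3 (circle) and 4 (triangle) with pravastatin, n = 4 arrays a slide. Filled symbols mark genes whose slides differed at an adjusted p under 0.05, and grey lines that run to the right show the lower ratio on slides 1 and 3.

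The lists that follow are to be read against all genes tested, of which 15.8% rose and 16.5% fell with SQ1, and 30.9% rose and 35.8% fell with pravastatin. A list of 14 other genes of haem synthesis and mitochondrial transport was set beside these. With pravastatin 11 of the 14 fell and 2 rose, with a median log2 ratio of -0.27, and with SQ1 4 fell and 1 rose, with a median of 0.02. Clpx, a mitochondrial unfoldase that activates Alas1 protein and also takes part in its haem-dependent breakdown, had the largest fall of the list with pravastatin, at -1.39 ± 0.10 (adjusted p = 5.37e-09). Lonp1, a mitochondrial protease that also degrades Alas1, rose with pravastatin by 0.40 ± 0.06 (adjusted p = 9.16e-06).

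Slc25a37, or mitoferrin 1, an importer of iron into mitochondria, rose 2.27-fold with pravastatin, at 1.18 ± 0.07 (adjusted p = 2.71e-10). With SQ1 it had -0.23 ± 0.07 (adjusted p = 0.0172), and -0.17 without SQ1 replicate 6, which was not past the threshold. This call was also lost with slide as a block, with scan day as a block and with median centring (-0.105). Alas2, the red cell counterpart of Alas1, fell with SQ1 (-0.47 ± 0.11, adjusted p = 0.00323) and with pravastatin (-0.74 ± 0.11, adjusted p = 1.49e-05). With Agilent's processed signals Alas2 had -1.08 with SQ1 and -1.79 with pravastatin, and it was well above background in 6 of 8 pravastatin channels. Alas2 had -0.76 and -0.18 on slides 1 and 2 with SQ1, and -1.01 and -0.46 on slides 3 and 4 with pravastatin. By the brighter Alas1 probe, the 2 genes for the first enzyme thus had opposite signs with both drugs. By the dimmer probe, at -0.01 ± 0.03 with pravastatin, they did so with SQ1 only. Slc25a38, the mitochondrial glycine carrier, fell with SQ1 by 0.34 (SE 0.03, adjusted p = 1.92e-06), a call that was lost with median centring. Abcb6, a porphyrin transporter, had 0.28 ± 0.10 with SQ1 (adjusted p = 0.0351), which was lost with slide as a block, with scan day as a block (0.14), and without SQ1 replicate 3, 4, 7 or 8 (0.26, 0.22, 0.24 or 0.25).

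In the list of haem breakdown, export and sensing, 5 of 17 genes rose and 8 fell with pravastatin, with a median of -0.11, and 1 rose and 3 fell with SQ1, with a median of -0.04. The 29.4% that rose with pravastatin and the 17.6% that fell with SQ1 were near the shares of all genes. Hmox1, the inducible haem oxygenase that opens the ring and uses electrons from P450 reductase, rose with pravastatin by 0.42 ± 0.06 (adjusted p = 6.79e-06) and had 0.06 ± 0.06 with SQ1 (adjusted p = 0.43). Blvrb, a biliverdin reductase, rose with pravastatin by 0.70 ± 0.07 (adjusted p = 7.02e-08). Flvcr1, known as a haem exporter, rose by 0.56 ± 0.04 (adjusted p = 1.27e-09), and Bach1, a repressor that haem inactivates, by 0.37 ± 0.06 (adjusted p = 6.62e-05). Pgrmc2 (-0.50 ± 0.06), Hmox2 (-0.31 ± 0.04) and Blvra (-0.26 ± 0.03) were among the genes that fell with pravastatin. The pravastatin calls of Hmox2 and Blvra were lost with median centring. Hpx, the haem-binding plasma protein that hepatocytes secrete, fell with pravastatin (-0.64 ± 0.07, adjusted p = 5.36e-07) and with SQ1 (-0.39 ± 0.07, adjusted p = 0.000476). With median centring the SQ1 call of Hpx was lost, and with pravastatin it had -0.38.

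Among 16 other electron carriers and NADPH sources, 7 rose and 5 fell with pravastatin, with a median of 0.03, and 5 rose and 2 fell with SQ1, also with a median of 0.03. The 31.2% that fell with pravastatin and the 12.5% that fell with SQ1 were not above the shares of all genes. Pgd, which makes NADPH in the pentose phosphate pathway, rose with SQ1 (0.28 ± 0.03, adjusted p = 1.41e-05) and with pravastatin (0.73 ± 0.03, adjusted p = 2.68e-11). Idh1, another source of NADPH, rose with SQ1 by 0.33 ± 0.04 (adjusted p = 2.96e-05) and had 0.01 ± 0.04 with pravastatin (adjusted p = 0.783). Cyb5r3, the reductase that passes electrons from NADH to cytochrome b5, had -0.01 ± 0.05 with SQ1 (adjusted p = 0.876) and fell with pravastatin by 0.53 (SE 0.05, adjusted p = 2.35e-07). Fdx1, the ferredoxin that serves mitochondrial P450 enzymes, fell with pravastatin by 0.44 (SE 0.04, adjusted p = 1.01e-07). H6pd, which supplies NADPH inside the endoplasmic reticulum, fell with pravastatin by 0.51 (SE 0.04, adjusted p = 3.78e-08). With median centring Fdx1 had -0.25 and H6pd -0.31.

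Enzymes of sterol and fatty acid synthesis that draw on P450 reductase or cytochrome b5 mostly rose. Of 11 measured, 9 rose and 1 fell with SQ1, with a median of 0.67, and 6 rose and 3 fell with pravastatin, with a median of 0.15. Cyp51, the P450 enzyme of cholesterol synthesis, rose with SQ1 (1.21 ± 0.10, adjusted p = 1.67e-07) and with pravastatin (0.81 ± 0.10, adjusted p = 1.56e-06). Sqle, the squalene monooxygenase that takes electrons from P450 reductase, rose with SQ1 (1.00 ± 0.11, adjusted p = 4.09e-06) and with pravastatin (0.33 ± 0.11, adjusted p = 0.0128, and 0.53 with median centring). The desaturases went apart from each other: Scd2 rose with SQ1 (1.82 ± 0.07) and pravastatin (1.54 ± 0.07), while Scd1 fell with SQ1 (-0.59 ± 0.14, lost with median centring) and pravastatin (-1.95 ± 0.14).

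P450 genes of families 1 to 4, the main users of P450 reductase in the liver, fell as the choice of the 9 genes already states, and are given as counts. Of the 71 such genes on the array 62 were tested, and 49 were lower and 5 higher with pravastatin, with a median log2 ratio of -1.12. With SQ1, 9 were lower and 20 higher, with a median of 0.07. The largest falls with pravastatin were Cyp3a11 (-4.58 ± 0.25), Cyp3a59 (-4.08 ± 0.20) and Cyp3a25 (-3.97 ± 0.28), close relatives whose probes may share signal. The highest with pravastatin were Cyp1a1 (1.75 ± 0.14), Cyp2a4 (0.67 ± 0.15) and Cyp4f16 (0.41 ± 0.05). With SQ1 the highest were Cyp4a14 (1.96 ± 0.16), Cyp2b9 (1.73 ± 0.14) and Cyp4a31 (1.53 ± 0.10), and the lowest Cyp2c23 (-1.08 ± 0.18), Cyp4f14 (-0.80 ± 0.12) and Cyp2j5 (-0.60 ± 0.11). On single pravastatin arrays the median of the 62 genes lay between -1.32 and -0.92, whereas Por lay between 0.27 and 0.62 on the same arrays.

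Haem is also built into enzymes outside the P450 family. Of 19 other haem proteins and haem-linked genes, 15 fell and 2 rose with pravastatin, with a median of -0.33, and 6 fell and 2 rose with SQ1, with a median of -0.09. Tdo2, the haem enzyme that opens tryptophan in the liver, fell with pravastatin (-3.15 ± 0.24, adjusted p = 6.63e-09) and had -0.53 ± 0.24 with SQ1 (adjusted p = 0.1). Steap4, a metalloreductase, fell with SQ1 (-1.11 ± 0.10, adjusted p = 3.31e-07) and with pravastatin (-1.36 ± 0.10, adjusted p = 2.57e-09). Suox, the sulfite oxidase, fell with pravastatin by 1.13 (SE 0.07, adjusted p = 4.64e-10).

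Regulators linked to Alas1 were lower with pravastatin in most cases. Of 19, 13 fell and 4 rose with pravastatin, with a median of -0.47, and 2 fell and 4 rose with SQ1, with a median of 0.08. The 4 that rose with pravastatin were Cebpb (0.50 ± 0.05), Esrra (0.34 ± 0.04), Crtc2 (0.14 ± 0.04) and Nrf1 (0.11 ± 0.04). The drug-sensing receptors Nr1i3 (CAR) and Nr1i2 (PXR), which induce Alas1 and Por as well as P450 genes, fell with pravastatin, at -1.93 ± 0.19 (adjusted p = 1.28e-07) and -1.52 ± 0.07 (adjusted p = 2.36e-11). With Agilent's processed signals the pravastatin value of Nr1i3 was -3.39. With SQ1 Nr1i3 had 0.20 ± 0.19 (adjusted p = 0.447), and Nr1i2 had 0.26 ± 0.07 (adjusted p = 0.00904), which was lost with slide as a block. Nr1h4, the bile acid receptor FXR, had the largest fall of the list with pravastatin (4.01-fold lower, adjusted p = 2.71e-09), and the hepatocyte factor Hnf4a fell as well (-1.30 ± 0.09, adjusted p = 4.29e-09). Foxo1, a fasting-activated factor, rose with SQ1 (0.71 ± 0.07, adjusted p = 1.17e-06) and fell with pravastatin (-0.47 ± 0.07, adjusted p = 1.27e-05). Ppargc1a, the coactivator through which fasting induces Alas1, had 0.16 ± 0.08 with SQ1 (adjusted p = 0.114) and -0.17 ± 0.08 with pravastatin (adjusted p = 0.0671).

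**Figure D4:**
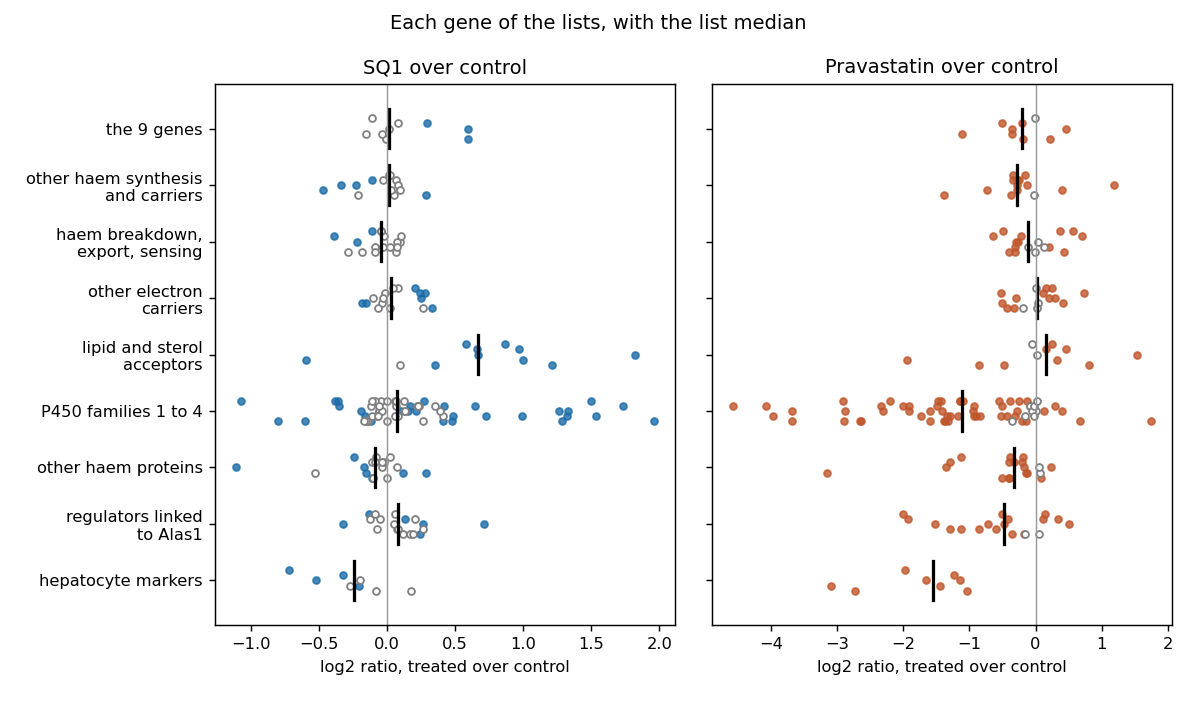
Log2 ratio of treated over control for each tested gene of the lists, with SQ1 on the left and pravastatin on the right (the axes differ in range). Filled points are past the threshold (adjusted p under 0.05), open points are not, and the black bar is the list median, which is -0.20 for the 9 genes, -1.12 for the P450 genes and -1.56 for the hepatocyte markers with pravastatin.

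The falls with pravastatin were accompanied by lower markers of the hepatocyte itself. All 8 hepatocyte markers fell with pravastatin, with a median over the list of -1.92 to -1.19 on single arrays, and 4 of 8 fell with SQ1, with -0.60 to 0.08. Of 9 Kupffer cell and leukocyte markers 7 fell with pravastatin and 5 with SQ1. Of 8 stellate and fibroblast markers 2 fell with pravastatin, and with SQ1 1 rose and 1 fell. Of 6 endothelial markers 2 rose and 3 fell with pravastatin, and 3 rose with SQ1, while of 6 cholangiocyte markers 1 rose and 3 fell with pravastatin and 3 fell with SQ1. Of 4 red cell markers that were tested, Alas2 alone fell, with both drugs. The part of these markers in the ratios of Alas1, Por and the other 7 genes was not tested.

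Genes most like Alas1 and Por over the 16 ratios, dye effect removed, were named by Pearson's r, which follows the ups and downs over arrays and not the level. For Alas1 these were Mxra8 (0.98), Lin28a (0.969), Mst1 (0.966), A2ml1 (0.965) and Ppp1r14c (0.965). The ratios of Mxra8 were 0.20 ± 0.04 with SQ1 and -0.11 ± 0.04 with pravastatin, and those of A2ml1 -0.57 ± 0.07 and -1.15 ± 0.07, so that genes with other signs than Alas1 can run alongside it. For Por they were Fam184b (0.871), Xrra1 (0.866), Crat (0.857), Usp15 (0.854) and Gng3 (0.839). The 16 arrays share 8 control cultures and 4 slides, and part of each r is the difference between the drugs.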

How the data were processed

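RNA of treated and control hepatocytes was hybridised to 16 two-colour Agilent arrays, with 500 ng of total RNA going into each amplification per the labels' protocols. The deposited scanner files hold median spot and background intensity per channel, left unnormalized by the authors per the file headers, and a red over green ratio on the log10 scale from Agilent Feature Extraction 11.0.1.1 per the file headers. The program is also named in the submitters' processing notes. The deposited series table is on the log2 scale and matches Agilent's ratio with treated on top, per a comparison with the scanner files (r over probes 0.742 to 0.999 per array), and was used as an alternative. The 9 genes and all gene lists were chosen with earlier results of these data known.

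Background was corrected by normexp (offset 50), arrays were normalised within themselves by loess, and spots of a probe were averaged (limma 3.58.1, R 4.3.3). For the channel intensities, though not for the ratios, the mean log intensity of both channels was also quantile-normalised between arrays. Of 39429 probes 27234 were named through their RefSeq accession and 12195 were not, and a gene was represented by its probe of highest mean intensity. Probes entered the test when well above background on 4 or more treated arrays of a drug or in 8 or more control channels, and with ratios on 7 or more arrays per drug, which left 5606 genes untested. One limma fit (lmFit, eBayes) over all 16 arrays had a coefficient per drug, signed by dye orientation, and a constant for the dye effect (13 residual degrees of freedom). Slide differences came from the same fit with a coefficient per slide and drug. Tests were two-sided, adjusted by Benjamini-Hochberg over all genes tested, and called at an adjusted p of 0.05. The fit was run on simulated data with independent noise, without slide differences or shared control cultures. That run therefore did not check the p-values where slides or cultures are shared. Values after ± are standard errors, and the median standard error was 0.04. The number of arrays limits the precision. The series calls the cultures biological replicates, but nothing says whether they came from separate mice, so the p-values measure the spread between these arrays.

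Named besides the 9 genes were, per list and drug, up to 4 genes past the threshold with the largest change, list members that a background clause turns on, the 3 largest P450 changes each way, and the 5 genes most correlated with Alas1 and with Por. Arrays of the same replicate number deviated together (correlation 0.221 to 0.718 in 8 pairs), and the shared number corresponds to a shared control culture in the deposited array names. Of 16 arrays, 7 correlated best with the array of their own number. The numbers also follow the slides, so that slide and control culture cannot be told apart in these correlations. The planned counts of cysteine-proline motifs in the proteins were not made, since no protein sequences were used here. Values of some listed genes are not reported here. Alternatives were median centring, no background subtraction, Agilent's processed signals, the series table, other filters, slide, scan day or replicate number as a random block, array weights, no dye term, each probe by itself, a threshold of 0.01, and leaving out each array.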

Additional observations from a re-analysis of the deposited data

Results flagged for a closer look

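In 18 sets of 8 arrays (9 genes, 2 drugs) the highest and lowest ratios were checked for standing apart from the other arrays, which chance alone does for about 1 in 20 sets. One did: Urod on pravastatin replicate 4 had a log2 ratio of 0.051 with the dye effect removed, while the other arrays of that drug lay at -0.33 to -0.15.

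The same drug gave different ratios on its slides for several genes, by the test of the difference itself. Slide 1 minus slide 2 with SQ1 was -0.25 for Alas1, -0.42 for Cpox, -0.20 for Fech and -0.50 for Cyb5a. Slide 3 minus slide 4 with pravastatin was -0.18 for Alas1, -0.28 for Alad, -0.24 for Uros, -0.46 for Cpox, -0.28 for Fech and -0.51 for Cyb5a. The slides of both drugs drew on the same control cultures.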

How the results depend on the processing

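Alas1, by its brighter probe, and Por kept their direction and their side of the threshold for both drugs under all 29 alternatives. The dimmer Alas1 probe, fitted by itself, had -0.01 with pravastatin and is not covered by this. The log2 ratios were 0.55 to 0.72 (SQ1) and 0.20 to 0.40 (pravastatin) for Alas1, by its brighter probe. For Por they were 0.57 to 0.72 (SQ1) and 0.43 to 0.63 (pravastatin). Since the ratios chose these genes, nothing is read from this. Leaving out a pravastatin array did not move their SQ1 estimates, so the alternatives are not 29 separate checks. Counts over all genes moved more. For SQ1 against control, 4865 genes were called, and 2076 with median centring, 2545 with slide and 2236 with scan day as a block, 7500 with each probe by itself (more features tested), 3117 at a threshold of 0.01 and 4047 to 5110 without single arrays. For pravastatin against control, 10039 genes were called, 16480 with each probe by itself and 9615 to 10039 without single arrays. For SQ1 minus pravastatin it was 8004, with 3696 under median centring, 12584 with each probe by itself and 7485 to 8271 without single arrays. With the replicate block the counts were 4726, 9867 and 9629, no call of the 9 genes against control changed, and Por moved past the threshold between the drugs. Of the calls, 48.8% were upwards with SQ1 and 71.2% under median centring; with pravastatin 46.3%, 61% under median centring and 56.8% with Agilent's signals or the series table.

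Of the 9 genes, 0 were lower with SQ1, but 1 (Alad) was with Agilent's signals, the series table or array weights (0 to 1 without single arrays; 1 without SQ1 replicate 4 or 7, at -0.20 each), and 2 to 3 were higher without single arrays. With pravastatin 6 were lower (6 without single arrays) and 1 under median centring, and 2 were higher throughout. Slide differences were called for 1846 genes with SQ1 and 3277 with pravastatin, and for 11 and 143 under median centring. Slc25a38 with pravastatin had -0.13 and 0.002 under median centring. The cause was not tested for any of these. Of 35 other named calls with SQ1, 24 were kept under median centring and 26 with slide as a block; of 52 with pravastatin, 46 and 50 were kept. All 9 genes were well above background in every channel, and the part of signal in changes between settings was not tested.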
